A study of Mus musculus with 6 samples.

Results

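MHC class II molecules present peptides from outside the cell to CD4+ T cells, and 10 genes for their chains, their chaperones and their master regulator were followed in converted double negative T cells (cDNT). The 10 genes were taken by name from the 29393 genes of the count table and are H2-Aa, H2-Ab1, H2-Eb1, H2-DMa, H2-DMb1, H2-DMb2, H2-Oa, H2-Ob, Cd74 and Ciita. The cDNT are T cells that lack CD4 and CD8, obtained in culture from CD4+CD25- T cells of C57BL/6 mice that were kept with IL-2 and mature C57BL/6 dendritic cells before sorting by flow cytometry. The group named W/ IL-10 (3 libraries) was given 50 ng/ml of the cytokine during 24 h after the sort. The group named W/O IL-10 (3 libraries) held the same cells without the cytokine. The labels give all 6 libraries as double negative T cells of adult C57BL/6 spleen, while the methods also name lymph nodes as the source and anti-CD3/CD28 antibodies during the culture. Nothing says that the 3 libraries of a group came from separate mice or cultures, so the p-values measure only the spread between these samples, which may be technical. Total counts lay between 21619420 and 23967088 per library. At this depth 3 counts, taken as the smallest number that can be read, were worth 0.125 to 0.139 CPM (counts scaled to the same library size), a floor that covers counting error only.

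The classical class II molecule is a pair of an alpha and a beta chain, here H2-Aa with H2-Ab1 (I-A) and H2-Eb1, a beta chain of I-E. The invariant chain, encoded by Cd74, blocks the peptide groove until the complex reaches the endosome. There the chaperone DM (H2-DMa with H2-DMb1 or H2-DMb2) exchanges the last fragment of the invariant chain for peptide, and DO (H2-Oa with H2-Ob) inhibits DM. Ciita encodes the transactivator that switches the whole group on. B cells and dendritic cells carry these genes at high levels, whereas resting mouse T cells are known for carrying little of them. C57BL/6 mice make no I-E alpha chain, and with it no I-E on the cell surface.

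The promoters of these genes are shown first because a shared promoter layout is what the family is known for. Class II promoters carry an X box, bound by the RFX factors and CREB, and a short distance downstream a Y box, which is a CCAAT box read on the other strand (ATTGG) and is bound by NF-Y. The RefSeq promoter windows of GRCm38.p6 run from 250 bases before a gene's start to 50 bases after it, and 7 of the 10 genes have such a window. H2-Ab1, Cd74 and Ciita have no entry. Capitals mark, on the strand of the gene, ATTGG as the letters of the Y box, and as letters of the X box GCAAC as well as TGATG. Copies of GCAAC and TGATG are marked by their letters alone, wherever they stand. In H2-Eb1 this includes a TGATG just before ATTGG, away from GCAAC, whose place is not that of an X box. Each stretch runs from 45 bases before ATTGG to 10 bases after it. The stretches cover chr17:34287857-34287916 on the minus strand for H2-Aa and, on the plus strand, chr17:34305763-34305822 for H2-Eb1, chr17:34145114-34145173 for H2-DMb2, chr17:34092291-34092350 for H2-Oa and chr17:34238803-34238862 for H2-Ob.
H2-Aa: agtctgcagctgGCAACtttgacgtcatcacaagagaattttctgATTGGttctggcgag
H2-Eb1: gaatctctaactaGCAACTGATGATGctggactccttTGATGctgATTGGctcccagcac
H2-DMb2: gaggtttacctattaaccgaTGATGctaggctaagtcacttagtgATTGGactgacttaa
H2-Oa: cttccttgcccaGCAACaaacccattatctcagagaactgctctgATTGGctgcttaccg
H2-Ob: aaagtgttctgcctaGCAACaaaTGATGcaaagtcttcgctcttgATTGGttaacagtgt
ATTGG began 43 bases before the start of H2-Oa, 48 before that of H2-Aa, 57 before that of H2-Ob, 59 before that of H2-Eb1 and 90 before that of H2-DMb2. The gap between GCAAC and ATTGG was 25 to 28 bases in H2-Aa, H2-Eb1, H2-Oa and H2-Ob. H2-DMa has 2 windows, of which 1 holds no ATTGG and the other holds it 198 bases before the start, and its stretch is not printed. The H2-DMb2 stretch holds no GCAAC, and the last 11 bases of the H2-Oa stretch lie in its exon in the GENCODE annotation, which starts the gene earlier than RefSeq does.

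Searched on both strands, the single words are common. Of the 27025 genes with a window, 41.1% held ATTGG in any of their windows, 38.6% GCAAC and 42.9% TGATG. Of the 7 class II genes that have a window, 7, 5 and 6 held them. Adjoining copies of TGATG overlap in H2-Eb1, where they also touch GCAAC. A pair of GCAAC followed on the same strand by ATTGG after 15 to 45 bases was also sought. It stood in the windows of 1.57% of all genes that have one and of 4 of the 7 class II genes. These are matches of letters and were not tied to a measurement of binding.

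All 10 class II genes passed the filter on low counts, and all 10 had a lower mean W/ IL-10 than W/O IL-10. The estimated log2 fold changes lay between -0.34 for H2-DMb1 and -0.96 for H2-Oa, with a median of -0.58, against a median of 0.0063 over all 14916 tested genes. Only H2-Oa passed the threshold of a fold change of at least 1.5 and an adjusted p under 0.05 (quasi-likelihood test of edgeR, adjusted by Benjamini-Hochberg over all tested genes). That is 1 of 10 genes called lower, where 0.677% of all tested genes were called lower and 0.778% called higher. At any fold change H2-Oa was again the only one with an adjusted p under 0.05, where 0.979% of all tested genes passed as lower and 1.21% as higher. The libraries of the groups did not overlap for H2-Oa and H2-DMa, both lower W/ IL-10, where 11.2% of all tested genes were lower without overlap and 11.3% higher. In RNA from a bulk of cells, fewer cells of a type and less RNA per cell cannot be told apart.

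**Figure D1:**
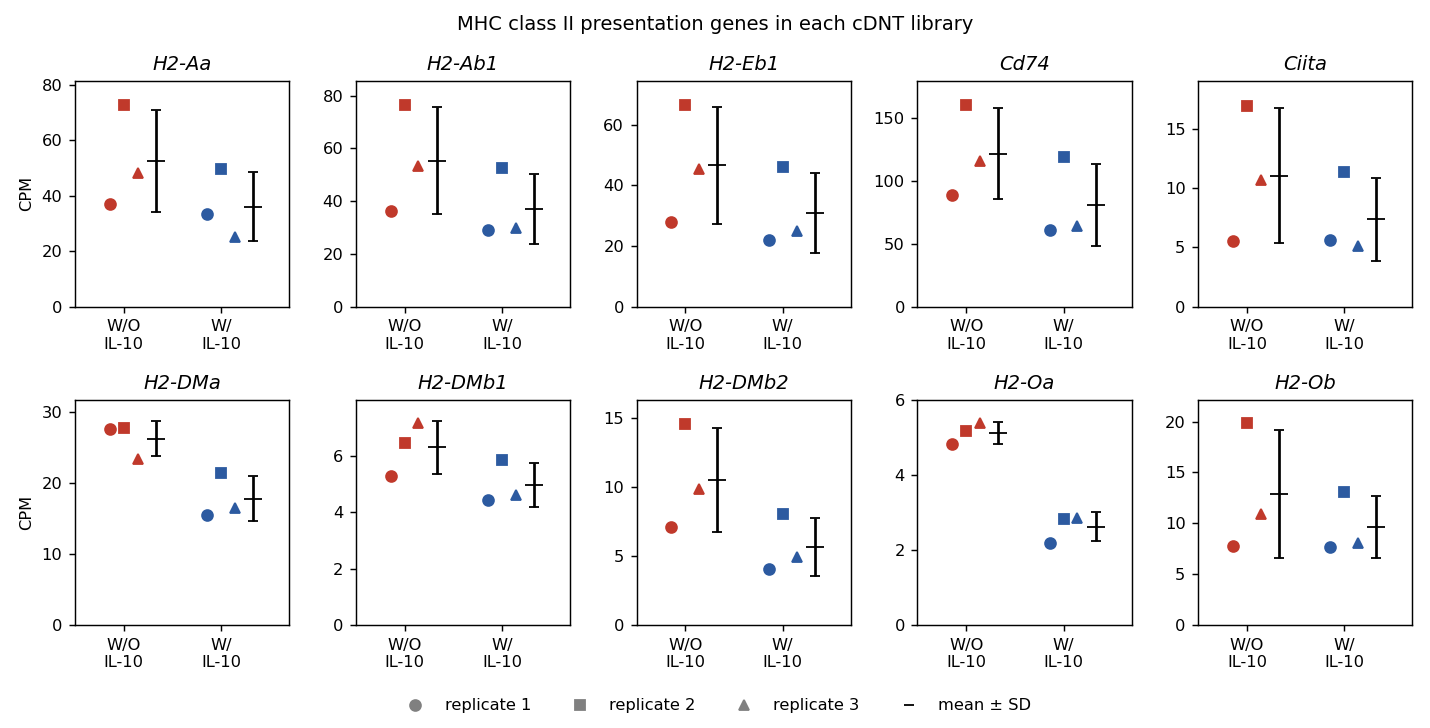
CPM of each class II gene in each library (vertical axes, each starting at 0), W/O IL-10 in red and W/ IL-10 in blue, with the mean and SD of 3 libraries in black beside them. Replicate 2 (squares) is the highest of its group in both groups for 8 of the 10 genes, and only H2-DMa and H2-Oa have groups that do not overlap.

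Set by level per kilobase of exon, with all annotated exons of a gene joined as its length, the invariant chain led. Cd74 averaged 60.4 CPM per kb over the 6 libraries, followed by H2-Eb1 with 19.9, H2-Ab1 with 18.0 and H2-Aa with 11.7 CPM per kb. The chaperone chains followed with 6.38 CPM per kb for H2-DMa, 4.64 for H2-DMb2, 3.35 for H2-DMb1, 2.75 for H2-Oa and 2.09 for H2-Ob. Ciita stood last with 0.965 CPM per kb. Within a library Cd74 exceeded H2-Eb1, H2-Ab1 exceeded H2-Aa, H2-Aa exceeded H2-DMa and H2-Ob exceeded Ciita in all 6 libraries. The neighbours H2-Eb1 and H2-Ab1, H2-DMa and H2-DMb2, H2-DMb2 and H2-DMb1, and H2-DMb1 and H2-Oa kept their order in 5 of 6 libraries each, and H2-Oa and H2-Ob in 4. This order depends on the annotated lengths. Without division by length, H2-Ab1 averaged 46.21 CPM, H2-Aa 44.38 and H2-Eb1 38.76 over the 6 libraries. H2-Ob, with 11.22 CPM, then stood above H2-Oa with 3.875.

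The classical chains were lower on average W/ IL-10, but the libraries of the groups overlapped. H2-Aa (chr17:34282744-34287823, minus strand), the alpha chain of I-A, had 37.0, 72.9 and 48.1 CPM W/O IL-10 and 33.3, 49.8 and 25.2 CPM W/ IL-10, in the order of replicates 1, 2 and 3 used throughout. Replicate 2 was the highest in each group, and W/ IL-10 replicate 2 stood above 2 of the 3 libraries W/O IL-10. The means were 52.7 ± 18.4 and 36.1 ± 12.5 CPM (SD, n = 3 each), with a log2 fold change of -0.54 ± 0.28 (SE) and an adjusted p of 0.420 by edgeR's quasi-likelihood test.

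H2-Ab1 (chr17:34257689-34269419, plus strand), the beta chain of I-A, had 36.2, 76.6 and 53.2 CPM W/O IL-10 and 29.2, 52.4 and 29.8 CPM W/ IL-10. The libraries stood in nearly the same order as for its partner. A log2 fold change of -0.58 ± 0.29 (SE) was found, with an adjusted p of 0.411 by the same edgeR test. The counts of H2-Aa made 102%, 95.3% and 90.4% of those of H2-Ab1 W/O IL-10 and 114%, 95.1% and 84.8% W/ IL-10, so the level of the alpha chain followed that of the beta chain from library to library.

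H2-Eb1 (chr17:34305867-34316674, plus strand) had 27.8, 66.6 and 45.5 CPM W/O IL-10 and 21.9, 46.0 and 24.9 CPM W/ IL-10. The fit gave a log2 fold change of -0.59 ± 0.34 (SE), with an adjusted p of 0.472 by the edgeR test. Its counts per count of H2-Ab1 differed by -0.017 on the log2 scale between the group means. Of the other class II chains of the region, H2-Eb2 had 0.490 to 2.77 CPM W/O IL-10 and 0.920 to 2.35 CPM W/ IL-10, with a log2 fold change of 0.01 and an adjusted p of 0.993 (edgeR's quasi-likelihood test). H2-Ea-ps, the I-E alpha pseudogene, had 1 count in W/O IL-10 replicate 2 and 0 in the other libraries.

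Cd74, the invariant chain, was the most abundant gene of the family in every library. It had 88.8, 160.6 and 116.0 CPM W/O IL-10 and 60.6, 118.8 and 64.0 CPM W/ IL-10. The groups overlapped only through W/ IL-10 replicate 2, which stood above replicates 1 and 3 W/O IL-10. The means were 121.8 ± 36.3 and 81.1 ± 32.7 CPM (SD, n = 3 each), with a log2 fold change of -0.59 ± 0.28 (SE) and an adjusted p of 0.385 by edgeR's quasi-likelihood test. The log2 fold change was -0.34 without W/O IL-10 replicate 2 and -0.97 without W/ IL-10 replicate 2, with adjusted p of 0.642 and 0.126 in the same edgeR test.

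Ciita (chr16:10480059-10528418, plus strand), the transactivator, had 5.56, 17.0 and 10.6 CPM W/O IL-10 and 5.59, 11.4 and 5.08 CPM W/ IL-10. Replicate 1 was as low W/O IL-10 as W/ IL-10. The spread between replicates was the widest of the family W/O IL-10, with an SD of 51.7% of the mean, where the median over the 9105 tested genes of at least 10 CPM was 7.47%. Ciita itself averaged 9.199 CPM over the 6 libraries and so lay below that limit. The log2 fold change was -0.59 ± 0.41 (SE), with an adjusted p of 0.562 by the edgeR test, and it came to -0.15 without W/O IL-10 replicate 2. Per count of the classical chains, the Ciita counts differed by 0.015 on the log2 scale between the group means.

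Among the DM chains, H2-DMa differed without overlap but missed the threshold. H2-DMa (chr17:34119541-34139101, plus strand), the DM alpha chain, had 27.6, 27.7 and 23.4 CPM W/O IL-10 and 15.5, 21.4 and 16.4 CPM W/ IL-10. Every library W/ IL-10 was below every library W/O IL-10. The means were 26.2 ± 2.43 and 17.8 ± 3.19 CPM (SD, n = 3 each), with a log2 fold change of -0.56 ± 0.14 (SE) and an adjusted p of 0.0891 by edgeR's quasi-likelihood test. Under DESeq2 its adjusted p was 0.0122. Its fold change was like that of the classical chains, while its SD W/O IL-10 was 9.28% of the mean against 35.0% to 41.7% for those chains. Of its exon bases, 10.4% lie under exons of Brd2 on the opposite strand, and whether strand was used in counting is not given in the sources used here.

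H2-DMb1 (chr17:34153072-34160230, plus strand), the first DM beta chain, had 5.27, 6.45 and 7.15 CPM W/O IL-10 and 4.42, 5.86 and 4.60 CPM W/ IL-10. W/ IL-10 replicate 2 stood above W/O IL-10 replicate 1. The log2 fold change of -0.34 ± 0.19 (SE) was the smallest of the family, with an adjusted p of 0.446 by the edgeR test.

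H2-DMb2 (chr17:34143307-34151555, plus strand), the second DM beta chain, had 7.11, 14.6 and 9.86 CPM W/O IL-10 and 4.08, 8.04 and 4.91 CPM W/ IL-10. The groups overlapped through a single pair of libraries, W/ IL-10 replicate 2 and W/O IL-10 replicate 1. The log2 fold change was -0.89 ± 0.31 (SE), with an adjusted p of 0.221 by edgeR's quasi-likelihood test. Without W/O IL-10 replicate 1 it was -1.12 with an adjusted p of 0.0311, and without W/O IL-10 replicate 2 it was -0.58 with an adjusted p of 0.459 in the same edgeR test. H2-DMb1 and H2-DMb2 share sequence, with 22.7% of the 50-base stretches of H2-DMb1 and 24.8% of those of H2-DMb2 found in transcripts of another gene, so the division of reads between them is uncertain. Taken as a sum per count of the classical chains, the DM beta chains differed by -0.10 on the log2 scale.

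H2-Oa, the alpha chain of the DM inhibitor DO, was the one gene of the family past the threshold. H2-Oa (chr17:34092340-34095234, plus strand) had 118, 125 and 125 counts W/O IL-10 and 45, 64 and 65 counts W/ IL-10, or 4.82, 5.17 and 5.38 CPM against 2.19, 2.84 and 2.85 CPM. The highest library W/ IL-10 was below the lowest W/O IL-10. The means were 5.13 ± 0.284 and 2.63 ± 0.380 CPM (SD, n = 3 each), with a log2 fold change of -0.96 ± 0.19 (SE) and an adjusted p of 0.0415 by edgeR's quasi-likelihood test. The fitted level was 48.7% lower W/ IL-10.

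The call for H2-Oa lies close to the threshold. In the edgeR test its adjusted p was 0.0237 without W/O IL-10 replicate 1, but 0.14 without W/O IL-10 replicate 2, 0.106 without W/O IL-10 replicate 3, 0.143 without W/ IL-10 replicate 1, 0.106 without W/ IL-10 replicate 2 and 0.167 without W/ IL-10 replicate 3. The log2 fold change stayed between -1.03 and -0.85 in these fits. Of the exon bases of H2-Oa, 22.8% lie under BC051537 on the opposite strand, and BC051537 itself had 0 to 6 counts in a library.

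H2-Ob (chr17:34238903-34254414, plus strand), the DO beta chain, had 7.72, 19.9 and 10.9 CPM W/O IL-10 and 7.68, 13.1 and 8.02 CPM W/ IL-10. The lowest libraries of the groups were nearly equal. Its log2 fold change was -0.42 ± 0.34 (SE), with an adjusted p of 0.615 by the edgeR test, and without W/O IL-10 replicate 2 it was 0.04 with an adjusted p of 0.970. The DO chains differed in their spread, with an SD of 5.55% of the mean for H2-Oa and 49.0% for H2-Ob W/O IL-10. W/ IL-10 these values were closer, at 14.49% and 31.65%, and each rests on 3 libraries. The counts of H2-Oa made 62.4%, 26.0% and 49.2% of those of H2-Ob W/O IL-10 and 28.5%, 21.7% and 35.5% W/ IL-10. The difference between the group means of this ratio was -0.62 on the log2 scale, and the libraries overlapped.

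**Figure D2:**
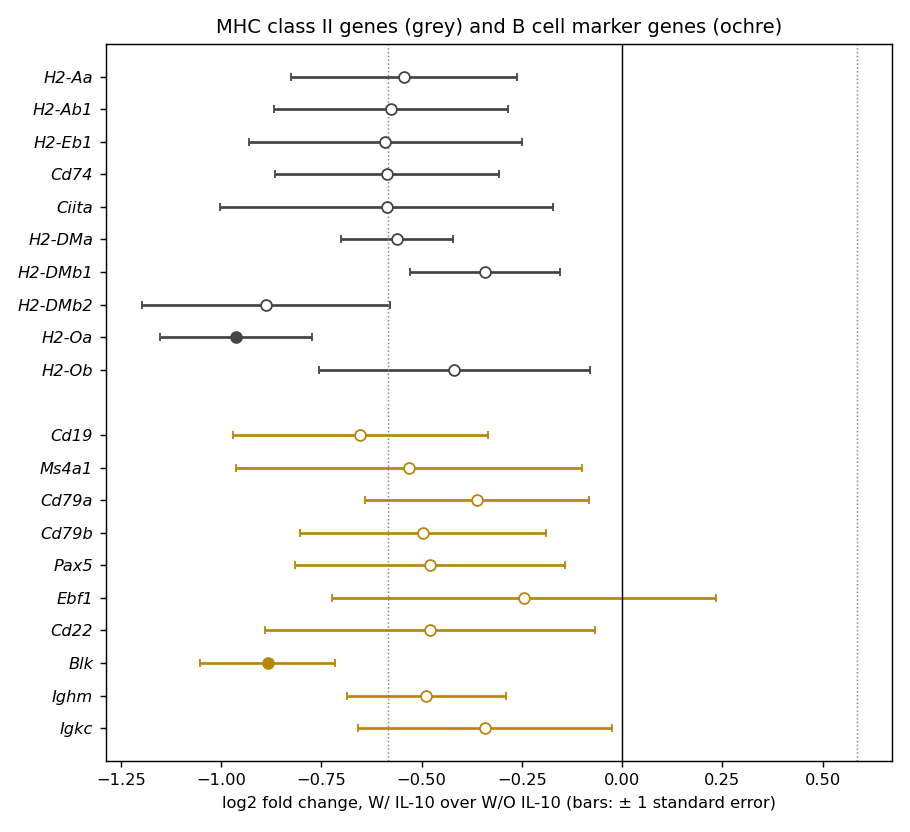
Log2 fold change of W/ IL-10 over W/O IL-10 (horizontal axis; bars ± 1 standard error of the edgeR fit) for the 10 class II genes and the 10 tested B cell marker genes. Filled points passed a fold change of at least 1.5 (dotted lines) with an adjusted p under 0.05, which H2-Oa and Blk did; all 20 points lie below 0.

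Chaperones were set against classical chains within each library, which needs no scaling between libraries. The summed counts of H2-DMa, H2-DMb1, H2-DMb2, H2-Oa and H2-Ob made 52.0%, 34.1% and 38.7% of the summed counts of H2-Aa, H2-Ab1 and H2-Eb1 W/O IL-10. W/ IL-10 the shares were 40.1%, 34.6% and 46.1%. The groups overlapped throughout, and W/O IL-10 replicate 1 was the highest of the 6. On the log2 scale the ratio was -1.29 ± 0.31 W/O IL-10, against -1.32 ± 0.21 W/ IL-10 (SD, n = 3 each), a difference of -0.035 that was smaller than either SD. With levels per kilobase the difference was -0.087, and with Cd74 counted among the classical chains it was -0.011. No test was made of these sums, since the genes were chosen as a group.

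Chain by chain, the ratios to the classical chains went in both directions. H2-DMb2 stood at 7.04%, 6.76% and 6.72% of the classical chains W/O IL-10 and at 4.84%, 5.43% and 6.14% W/ IL-10. This was the only one of the 5 chaperone chains whose ratio did not overlap between the groups, with a difference of -0.33 on the log2 scale, and its reads are in part shared with H2-DMb1 as given above. H2-Oa stood at 4.78%, 2.39% and 3.67% W/O IL-10 and at 2.59%, 1.92% and 3.57% W/ IL-10, with a difference of -0.41 and overlapping libraries. The log2 differences of the other chains were -0.013 for H2-DMa, 0.22 for H2-DMb1 and 0.21 for H2-Ob, all with overlapping libraries. The ratio of H2-DMb2 to H2-DMb1, 1.35, 2.26 and 1.38 W/O IL-10 and 0.923, 1.37 and 1.07 W/ IL-10, overlapped as well.

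**Figure D3:**
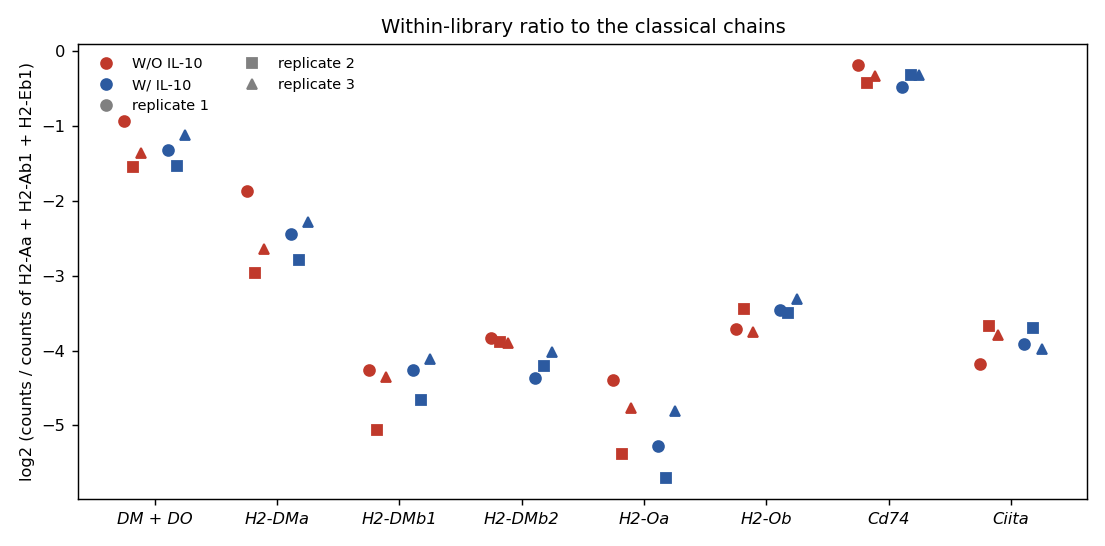
Log2 ratio of the counts of each gene, or of the summed DM and DO chaperones (left), to the summed counts of H2-Aa, H2-Ab1 and H2-Eb1 in each library (vertical axis), W/O IL-10 in red and W/ IL-10 in blue. The summed chaperones overlap between the groups, and H2-DMb2 is the gene whose groups do not overlap.

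The spread between replicates was shared by most of the family. Replicate 2 was the highest of its group both W/O and W/ IL-10 for 8 of the 10 genes, where this held for 9.63% of all tested genes. The exceptions were H2-DMb1 and H2-Oa. The classical chains and Cd74 summed to 189.7, 376.7 and 262.8 CPM W/O IL-10 and to 144.9, 266.9 and 143.9 CPM W/ IL-10. The sum of the chaperone chains varied less, with 52.5, 73.8 and 56.8 CPM W/O IL-10 and 33.8, 51.3 and 36.8 CPM W/ IL-10. This did not hold for each chain. W/O IL-10 the SD was 49.0% of the mean for H2-Ob and 36.0% for H2-DMb2, but 15.1% for H2-DMb1, 9.28% for H2-DMa and 5.55% for H2-Oa. For the classical chains and Cd74 it was 29.8% to 41.7%. W/ IL-10 the 5 chaperone chains had 31.65%, 36.77%, 15.82%, 17.97% and 14.49% in the same order, and the classical chains and Cd74 34.66% to 42.54%. With both replicate 2 libraries left out, a choice made after the data were seen, all 10 fold changes were still below 0, from -0.26 for H2-Ob to -1.03 for H2-Oa on the log2 scale, and no class II gene passed an adjusted p of 0.05 in edgeR, with 7 of the 10 at an unadjusted p under 0.05, where 10.7% of all tested genes were. Leaving out the highest library of each group narrows the range of those 8 genes by construction.

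Most markers of B cells were highest in the same libraries as most class II genes. The 11 B cell marker genes summed to 319.4, 516.0 and 371.6 CPM W/O IL-10 and to 229.3, 364.7 and 238.8 CPM W/ IL-10, led by Ighm, the heavy chain of IgM, by Blk, a kinase of the Src family, and by Igkc, the kappa light chain. All 10 tested markers had a log2 fold change below 0, with a median of -0.48, and Blk passed the threshold (log2 fold change -0.88, adjusted p of 0.0373, quasi-likelihood test of edgeR). Replicate 2 was the highest of its group in both groups for 9 of the 10 tested markers. Blk was the exception, with 77.8, 60.8 and 52.1 CPM W/O IL-10 and 36.8, 39.0 and 27.7 CPM W/ IL-10. No defining B cell marker was at 0 in any library, and Fcer2a, the lowest, had 1 to 23 counts.

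Set against the 10 B cell markers without Blk, which was left out after its values were seen, the classical chains made 41.8%, 47.5% and 45.9% of the marker counts W/O IL-10 and 43.8%, 45.5% and 37.8% W/ IL-10. The difference of -0.091 on the log2 scale was smaller than the SD of either group, 0.095 and 0.14. H2-DMb2 made 2.94%, 3.21% and 3.09% of these marker counts W/O IL-10 and 2.12%, 2.47% and 2.33% W/ IL-10, without overlap and with a difference of -0.42. For H2-Oa the difference was -0.51, with overlapping libraries. The part of B cell RNA in the class II counts was not tested.

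**Figure D4:**
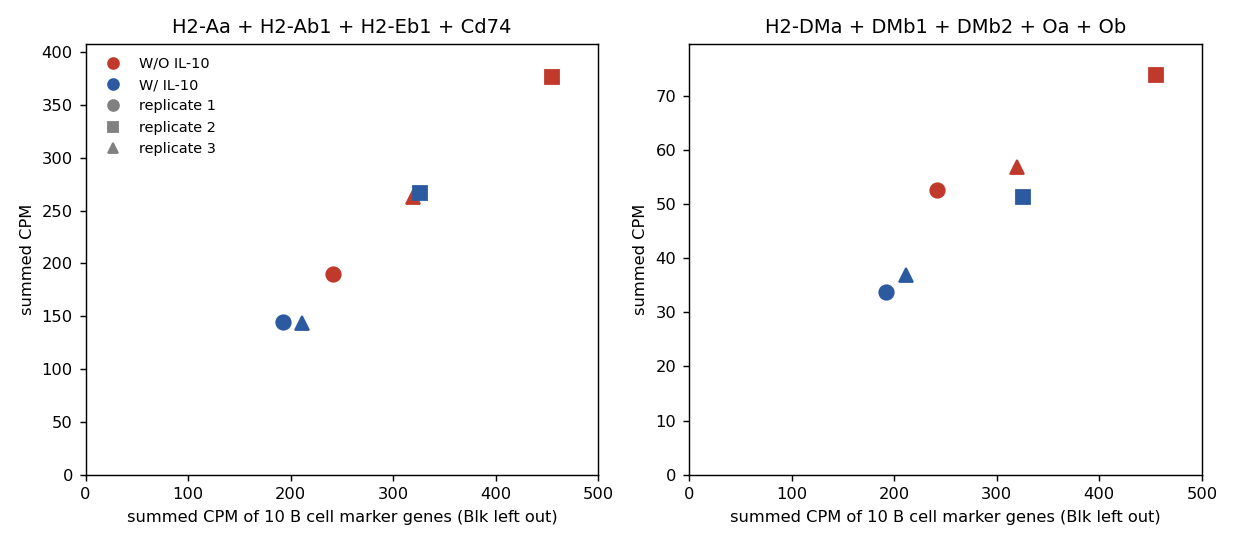
Summed CPM of the classical chains and Cd74 (left) and of the DM and DO chaperone chains (right) against the summed CPM of 10 B cell marker genes, Blk left out after its values were seen, in each of the 6 libraries. W/O IL-10 replicate 2 is the highest on both axes of both panels, with 376.7 CPM in the left panel.

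Markers of other cell types were read in the same way. The T cell markers summed to 3381 to 3875 CPM W/O IL-10 and 4366 to 4506 CPM W/ IL-10, led by Thy1, Cd3g and Cd3d. The transcripts behind the label double negative were not all low: Cd4 averaged 1.39 and 0.889 CPM W/O and W/ IL-10, but Cd8a, the CD8 alpha chain, averaged 106.8 and 157.7 CPM. By edgeR's quasi-likelihood test Cd8a rose, with a log2 fold change of 0.56 and an adjusted p of 0.0369, as did Cd8b1 (0.67, adjusted p of 0.0306), while Cd5 fell (-0.47, adjusted p of 0.0467). The 14 dendritic cell markers in the table summed to 154.6 to 164.8 CPM W/O IL-10 and 124.7 to 138.0 CPM W/ IL-10. Among them Ccr7 fell, with a log2 fold change of -0.63 and an adjusted p of 0.0364, and Itgax rose (1.09, adjusted p of 0.00383), both by edgeR's quasi-likelihood test. Ccl22, a chemokine of mature dendritic cells, had 21.0, 9.51 and 5.90 CPM W/O IL-10 and 3.79, 1.78 and 0.263 CPM W/ IL-10, with an adjusted p of 0.102 in that test.

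Of the 10 tested dendritic cell markers, 8 had a log2 fold change below 0, with a median of -0.45 over the list. The groups did not overlap for 5 that were lower (Ccr7, Ccl22, Fscn1, Cd40 and Zbtb46) and 2 that were higher (Itgax and Xcr1). Over all tested genes, 11.2% were lower without overlap and 11.3% higher. Xcr1 had a log2 fold change of 0.60, with an adjusted p of 0.184 in edgeR. Fscn1, an actin bundling protein of mature dendritic cells, had 7.56, 3.06 and 2.76 CPM W/O IL-10 and 1.22, 1.95 and 0.920 CPM W/ IL-10. Fscn1 thus had a log2 fold change of -1.71, with an adjusted p of 0.105 in edgeR and 0.00336 in DESeq2. Cd40, a costimulatory receptor, and Zbtb46, a transcription factor of dendritic cells, had log2 fold changes of -1.34 and -0.44 and adjusted p of 0.112 and 0.212 in edgeR. Xcr1, Fscn1, Cd40, Zbtb46, Cd86 and Batf3 were named after their values were seen. Clec9a and Siglech, markers of dendritic cell subsets, had 0 or 1 count in every library, and Flt3 had 0 to 7.

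The 11 macrophage and monocyte markers summed to 27.8 to 36.7 CPM W/O IL-10 and 33.4 to 36.7 CPM W/ IL-10, led by Cd68, Cd14 and Itgam. C1qa had 6, 0 and 2 counts and C1qb 18, 0 and 1 W/O IL-10, and both were at 0 in the 3 libraries W/ IL-10. Of the 5 tested, Cd14 was lower W/ IL-10 without overlap, and Cd68 and Itgam were higher. Over all tested genes, 11.2% were lower without overlap and 11.3% higher. The 7 NK cell and innate lymphoid cell markers, with Eomes and Kit as the highest, summed to 1159 to 1165 CPM W/O IL-10 and 825 to 862 CPM W/ IL-10. Among these, Ncr1, Eomes and Kit fell (edgeR adjusted p of 0.0460, 0.0176 and 0.0269). The replicate 2 libraries were not the highest in both groups for any tested gene of the T cell, macrophage or NK cell lists, but they were for 4 of the 10 tested dendritic cell markers (Zbtb46, Cd40, Cd86 and Batf3). With a library left out, the adjusted p of each marker gene that passed 0.05 in edgeR and is named here, except Itgax but Blk included, rose above 0.05 in 3 to 5 of the 6 fits, among them in every case those without W/O IL-10 replicate 2, W/ IL-10 replicate 1 or W/ IL-10 replicate 3, and reached 0.123 to 0.22. The parts of these cells in the class II counts were not tested.

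The genes that process antigen for class II did not pass the test in edgeR. The 16 tested genes were those for endosomal proteases, lysosomal membrane proteins and regulators of class II turnover. Of these, 0 had an adjusted p under 0.05 in edgeR, while DESeq2 gave one to 1 of them, Cd83. An unadjusted p under 0.05 was found for 4 in edgeR, where 14.7% of all tested genes had one. The groups did not overlap for 4 of the 16, 2 in each direction, where 11.2% of all tested genes were lower without overlap and 11.3% higher. Their median log2 fold change was -0.14. The highest per kilobase were Ctsd, an aspartic protease with 521.0 ± 86.8 CPM W/O IL-10 and 587.8 ± 8.02 CPM W/ IL-10 (SD, n = 3 each), Lamp1, a membrane protein of the lysosome, with 205.1 and 184.8 CPM, and Ctsb, a cysteine protease, with 190.3 and 231.1 CPM. Cd83, which protects class II from turnover, was named after its values were seen: it had 26.0, 38.9 and 31.4 CPM W/O IL-10 and 14.2, 23.3 and 13.2 CPM W/ IL-10, with a log2 fold change of -0.93 ± 0.23 (SE) and an adjusted p of 0.0840 by edgeR's quasi-likelihood test. Its replicate 2 libraries were the highest of each group, like those of Cd74.

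The factors that bind or drive the class II promoters did not pass it either. Of 18 tested genes, 0 had an adjusted p under 0.05 in edgeR, while DESeq2 gave one to 1 of them, Stat3. An unadjusted p under 0.05 was found for 5 in edgeR, where 14.7% of all tested genes had one. The groups did not overlap for 4 that were lower and 2 that were higher, where 11.2% and 11.3% of all tested genes did so. Their median log2 fold change was -0.05. Irf8, an interferon regulatory factor of B cells and dendritic cells, was the highest per kilobase, with 664.7 ± 40.6 CPM W/O IL-10 and 649.2 ± 56.4 CPM W/ IL-10 (SD, n = 3 each). Stat3, which carries the signal of the IL-10 receptor, had 381.9 ± 34.7 and 497.5 ± 13.2 CPM (SD, n = 3 each), with a log2 fold change of 0.38 and an adjusted p of 0.0720 by edgeR's quasi-likelihood test, and Irf1 had 134.9 and 127.1 CPM. The RFX subunits, named after their values were seen, averaged 27.2 CPM for Rfx5, 18.2 CPM for Rfxap and 12.1 CPM for Rfxank W/O IL-10, with log2 fold changes of -0.34, -0.14 and -0.06 and adjusted p of 0.179, 0.666 and 0.869 in the edgeR test.

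Genes that lie among or near the class II genes on the chromosome but have other roles were tested as neighbours. Of 7 tested neighbours, 0 had an adjusted or an unadjusted p under 0.05 in edgeR or in DESeq2, and the median log2 fold change was -0.13. Over all tested genes, 14.7% had an unadjusted p under 0.05 in edgeR and 13.1% in DESeq2. The groups did not overlap for 2 of the 7 neighbours, Tap1 among them, both lower W/ IL-10. Of all tested genes 11.2% were lower without overlap and 11.3% higher. Tap1 and Tap2, the peptide transporter of class I, had 430.7 and 128.5 CPM W/O IL-10 and 388.2 and 131.7 CPM W/ IL-10. Brd2, a bromodomain protein whose exons overlap those of H2-DMa, had 450.2 ± 28.2 and 404.5 ± 33.8 CPM (SD, n = 3 each), with a log2 fold change of -0.15 and an adjusted p of 0.487 by the edgeR test. For Tap1, Tap2 and Brd2 the SD was at most 14.1% of the mean in either group, against at least 34.7% for H2-Aa, H2-Ab1 and H2-Eb1.

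The genes whose levels were most like those of the classical chains and Cd74 were sought over the 6 libraries. Pearson's r with the mean log2 CPM of H2-Aa, H2-Ab1, H2-Eb1 and Cd74 served as the measure of likeness, as a description only, since the points share their libraries. The 5 highest genes outside the family were Snn (r = 0.994), Cecr2 (0.993), Cd79b (0.993), Atg9b (0.993) and Col16a1 (0.990). Cd79b is a signalling chain of the B cell receptor and one of the B cell markers above. Cecr2 and Col16a1 were low, with means of 0.687 and 0.517 CPM. Within the family, Ciita had r = 0.978, H2-DMb2 0.965, H2-Ob 0.947, H2-DMb1 0.874, H2-DMa 0.740 and H2-Oa 0.646, so that the DM and DO alpha chains were the least like the classical chains.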

How the data were processed

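RNA was sequenced in 6 libraries of cDNT, 3 per group, and the deposited values are whole-number read counts of each gene, which the authors did not normalize. Total counts lay between 21619420 and 23967088 per library. The submitters' processing notes name HISAT2, HTSeq and GRCm38, whereas the paper's methods name TopHat and Cufflinks with UCSC annotation. Versions and the use of strand are not given in the sources used here. The methods name a NEBNext library kit and the labels a TruSeq kit, and the design text speaks of duplicates.

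TMM factors and the quasi-likelihood test were computed with edgeR 4.0.16 in R 4.3.3, from all 6 libraries and without a block. Tested were the 14916 genes for which 3 or more libraries had 10 or more counts. A gene was called where the fold change was at least 1.5 and the p-value, adjusted by Benjamini-Hochberg across the tested genes, was under 0.05. The SE is the log2 fold change divided by the square root of F. CPM used the TMM-scaled library sizes, and exon lengths and gene coordinates came from GENCODE M21 (GRCm38), which held 29332 of the 29393 identifiers. Promoters came from RefSeq (GRCm38.p6), and the stretches of H2-DMb1, inside an annotated exon, and of H2-DMa were not printed.

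Named were all 10 class II genes, the genes past an adjusted p of 0.05 or otherwise the 3 highest per kilobase of each pathway list, the 3 highest and those at 0 of each marker list, and the 5 genes most like the classical chains. Genes outside this rule are said to be named after their values were seen, as were the other markers given with their values. The genes and lists were chosen with earlier results of these data known. The alternatives were DESeq2 1.42.0, upper-quartile factors, other filters on low counts, limma-voom (limma 3.58.1), the replicate number as a block, a correction for GC content and length (splines with 5 degrees of freedom), each library left out, and, added after seeing the data, both replicate 2 libraries left out. The fits were tested on simulated counts. Some marker genes of the lists are not reported here. Tables were handled with pandas 2.3.3 and plots drawn with matplotlib 3.10.9 (Python 3.11.15).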

Additional observations from a re-analysis of the deposited data

How the results depend on the processing

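All 10 class II genes kept a log2 fold change below 0 in all 15 other fits except H2-Ob, at -0.711 to 0.036 with a library left out and above 0 without W/O IL-10 replicate 2, and the chaperone to classical chain ratio differed by -0.166 to 0.138 (log2) with a library left out and by -0.087 to -0.011 otherwise. In the reported fit, 116 genes were called higher and 101 lower, 327 had an adjusted p under 0.05 at any fold, and 1 class II gene, H2-Oa, passed by either rule. DESeq2 gave 176, 183 and 696 genes, with H2-DMa and H2-Oa as the 2 class II genes past an adjusted p of 0.05. With no filter (29393 genes tested) there were 302, 337 and 1239 genes, 5 class II genes called and 8 past the adjusted p. With the replicate block there were 103, 93 and 283 genes, and 2 class II genes, H2-DMb2 and Cd74, were called and were the 2 past the adjusted p, while H2-Oa had 0.058. With this block 9 of the 10 class II genes had an unadjusted p under 0.05 in edgeR, against 3 in the reported fit. In each fit 14.7% of all tested genes had one. The replicate numbers come from the labels. For the next values each gene's mean log2 CPM in its group was first subtracted. They are thus correlations of what was left, not of whole expression profiles. On this measure same-numbered libraries W/O and W/ IL-10 correlated at 0.0524, -0.0573 and 0.114, against a mean of -0.0175 for the other pairs. W/O IL-10 replicates 1 and 3 correlated best with their own number, and replicate 2 did not. Whether same-numbered libraries share a mouse or culture is not stated, and these values cannot decide it. With the GC content and length correction 514 genes passed at any fold, and with this correction and the replicate block 162 were called lower, 835 passed at any fold, 2 class II genes were called and 6 passed the adjusted p. With 1 library left out, 31 to 124 genes were called higher, 4 to 130 lower, 35 to 525 passed at any fold, and 0 to 2 class II genes were called and 0 to 2 passed the adjusted p. Where 0 class II genes passed in edgeR, 2 to 9 had an unadjusted p under 0.05, where 10.7% to 14.3% of all tested genes had. With both replicate 2 libraries left out there were 6, 0 and 6 genes and 0 class II genes by either rule. H2-Oa lost its call in 7 of the 15 fits, with an adjusted p of 0.00379 to 0.285. The cause of these changes was not tested. In all 6 libraries every class II gene lay above the floor of 3 counts, the lowest at 45 counts, and the SDs W/O IL-10 were 29.8% to 51.7% of the mean for H2-Aa, H2-Ab1, H2-Eb1, Cd74 and Ciita.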
